A study of Mus musculus with 6 samples.

Results

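The Bcl2 family genes described here are Bcl2, Bcl2l1, Mcl1, Bak1, Bcl2l11, Bid, Bad, Bbc3 and Pmaip1, taken with all probe sets (groups of short probes for a single transcript) whose annotation names one of them and no other gene. This gave 9 genes with 29 probe sets, out of 18193 genes with 34945 probe sets. Another gene of the family, the effector Bax, was not analysed here, for want of a probe set naming only that gene. The arrays were hybridised with RNA of LSK cells, the lineage-negative, Sca1-positive and Kit-positive fraction of adult mouse bone marrow that holds blood stem cells and early multipotent progenitors. The cells came from mice 10 to 14 weeks old and were separated by flow cytometry on CD34 and Flt3 staining into a CD34-Flt3- group, a CD34+Flt3- group and a CD34+Flt3hi group, each with 2 arrays. No genotype, strain or treatment was given in the labels, and the study asked which expression changes might go with the different functions of these subpopulations. In mice, long-term repopulating stem cells are found mostly among CD34-Flt3- LSK cells, and CD34+Flt3hi LSK cells are rich in lymphoid-primed progenitors. Whether arrays of 1 group stem from different mice or sorts is not stated, so the p-values cover no more than the spread between arrays, and that spread may be technical.

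Bcl2 family proteins decide whether the outer mitochondrial membrane stays intact. Prosurvival members (Bcl2, Bcl2l1 and Mcl1) hold back the effectors Bax and Bak1, which otherwise open the membrane, release cytochrome c and start the caspase cascade. The BH3-only members (Bcl2l11, Bid, Bad, Bbc3 and Pmaip1) sense stress or loss of growth factors and bind the prosurvival proteins, and some also bind the effectors. Mcl1 is needed for the survival of blood stem cells in mice, and its protein is short-lived. The arrays measured RNA, not protein.

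Mcl1, Bcl2 and Bcl2l11 had the largest differences between the groups by their brightest probe sets, and their promoters are shown for that reason. The sequences are RefSeq windows of 300 bases on GRCm38.p6, running from 250 bases before the transcript start to 50 bases after it, and capitals mark a motif match. Capitals in Mcl1 and Bcl2 are the core of the cyclic AMP response element, TGACG, which lies on the reverse strand in Mcl1 and so reads CGTCA there. Capitals in Bcl2l11 are the forkhead box letters GTAAACA.
Mcl1, chr3:95658471-95658770, plus strand: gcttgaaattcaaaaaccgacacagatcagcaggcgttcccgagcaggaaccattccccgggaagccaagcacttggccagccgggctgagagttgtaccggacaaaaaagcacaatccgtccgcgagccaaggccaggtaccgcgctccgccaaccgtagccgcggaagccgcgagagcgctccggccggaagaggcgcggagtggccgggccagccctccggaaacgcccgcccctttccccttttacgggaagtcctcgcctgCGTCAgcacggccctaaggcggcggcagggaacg
Bcl2, chr1:106714241-106714540, minus strand: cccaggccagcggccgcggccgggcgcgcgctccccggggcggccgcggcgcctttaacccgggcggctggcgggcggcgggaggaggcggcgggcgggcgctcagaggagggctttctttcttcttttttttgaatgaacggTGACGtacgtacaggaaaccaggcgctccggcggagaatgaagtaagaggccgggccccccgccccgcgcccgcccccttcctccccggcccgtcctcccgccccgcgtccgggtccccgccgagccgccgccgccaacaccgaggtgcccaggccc
Bcl2l11, chr2:128125788-128126087, plus strand: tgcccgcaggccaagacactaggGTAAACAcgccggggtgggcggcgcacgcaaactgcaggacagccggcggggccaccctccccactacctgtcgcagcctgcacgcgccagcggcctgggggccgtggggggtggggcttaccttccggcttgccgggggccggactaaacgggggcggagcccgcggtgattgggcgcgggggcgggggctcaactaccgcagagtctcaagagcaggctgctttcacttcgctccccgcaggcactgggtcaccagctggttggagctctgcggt
Both strands were searched for these motifs and for the STAT motif TTCNNNGAA in 14 windows of 8 of the 9 genes, all but Pmaip1. TGACG was found in 3 of the 14 windows and in 20.8% of all 32851 promoter windows. GTAAACA was found in 2 of the 14 and in 3.65% of all windows, and TTCNNNGAA in 0 of the 14 and in 8.3% of all windows. The other Bcl2l11 window, at chr2:128127325-128127624, held no GTAAACA. These matches describe letters in the windows, and binding was not measured.

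Values are log2 of the deposited intensities. Probe sets bind with different strength, so levels are compared between groups and not between probe sets. Background was set at a log2 of 4.50, which 90% of the readings of 27 bacterial controls did not exceed, and 34.0% of all probe sets had a mean below it. Of the 29 member probe sets, 20 were above it on all 6 arrays, 25 had the mean of at least 1 group above it, and 2 were below it on every array. Groups were compared by limma fitted to all 6 arrays, with p-values adjusted by Benjamini and Hochberg over the 34945 probe sets and calls made below 0.05. Exact permutation of 2 arrays against 2 has a smallest p of 0.333 and was not used. In CD34+Flt3- against CD34-Flt3- cells 1 of the 29 member probe sets passed, a share of 3.45%, against 1.12% of all probe sets (0.644% counting only lower ones). Between CD34+Flt3hi and CD34+Flt3- cells none of the 29 passed the limma threshold (3 had an unadjusted p under 0.05), against 0.343% of all probe sets at the adjusted and 5.61% at the unadjusted threshold. Between CD34+Flt3hi and CD34-Flt3- cells 2 passed, a share of 6.90%, against 4.13% of all probe sets (2.24% counting only lower ones). All of the calls were Mcl1 probe sets that fell. The moderated F over the 3 groups called 1 member probe set, against 2.79% of all probe sets.

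The median difference of the 29 probe sets was -0.09 in CD34+Flt3- against CD34-Flt3- cells, 0.09 in CD34+Flt3hi against CD34+Flt3- cells and -0.05 in CD34+Flt3hi against CD34-Flt3- cells. Over all probe sets the same medians were -0.07, 0.02 and -0.04. Arrays of the compared groups did not overlap for 12 of 29 member probe sets in CD34+Flt3- against CD34-Flt3- cells, 9 of 29 in CD34+Flt3hi against CD34+Flt3- cells and 16 of 29 in CD34+Flt3hi against CD34-Flt3- cells. The shares over all probe sets were 42.3%, 39.0% and 45.5%, so the members' counts lay near the background. By their brightest probe sets Mcl1 had its highest mean in CD34-Flt3- cells and its lowest in CD34+Flt3- cells, while Bcl2 and Bcl2l11 had their highest in CD34+Flt3hi cells and their lowest in CD34-Flt3- cells.

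**Figure D1:**
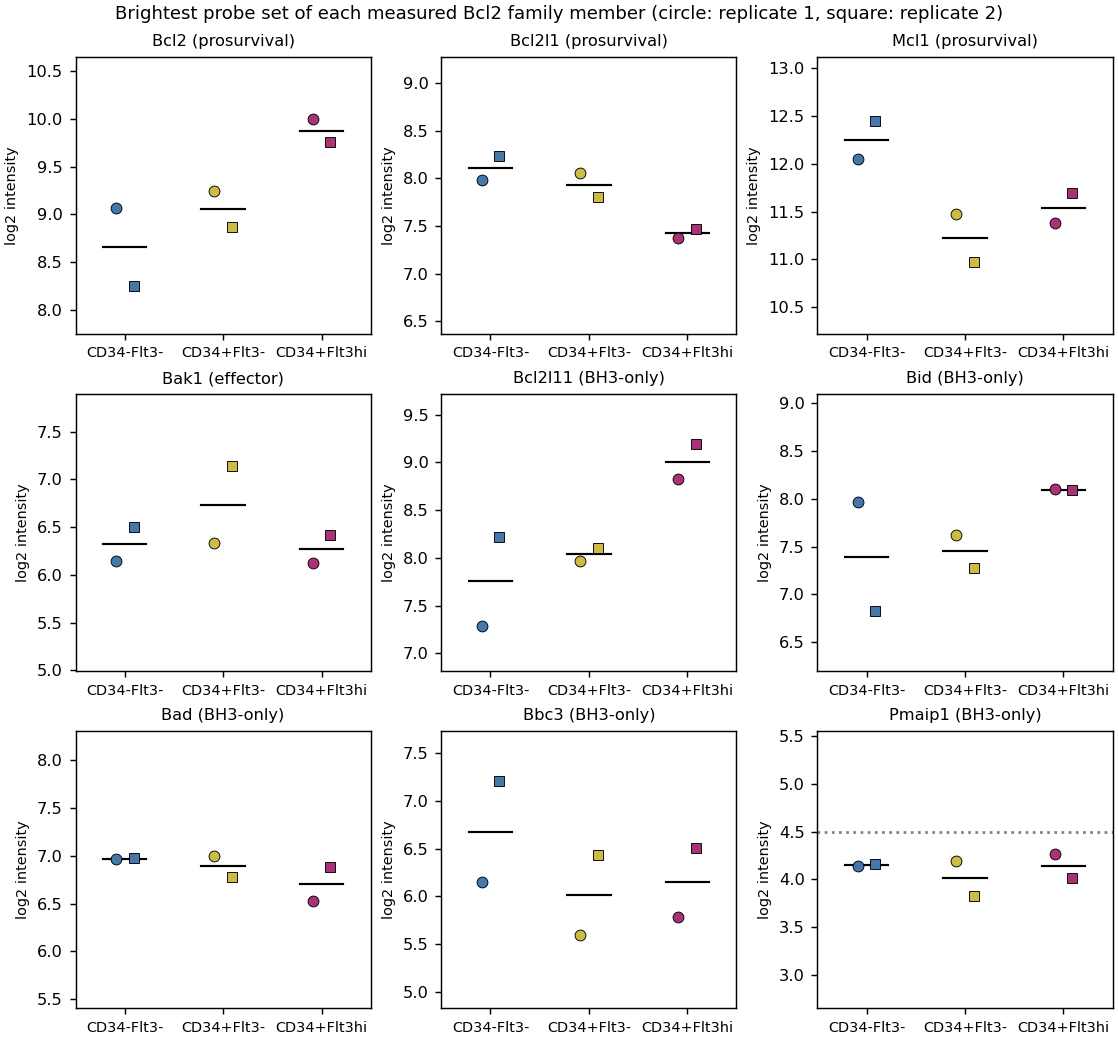
The log2 intensity of the brightest probe set of each of the 9 genes on the vertical axis, by group on the horizontal axis, with a point for each array, a bar for the mean of 2 arrays and, where it falls within a panel, a dotted line at the background of 4.50. Mcl1 was highest in CD34-Flt3- cells, Bcl2 and Bcl2l11 were highest in CD34+Flt3hi cells, and Pmaip1 lay below background on all 6 arrays.

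Mcl1, which encodes a short-lived prosurvival protein, passed the test as lower RNA in both CD34+ groups on probe set 1416880_at. Mcl1 passed on 1437527_x_at in CD34+Flt3hi cells only. Its probe set 1448503_at, the brightest of 6, read 12.05 and 12.45 in CD34-Flt3- cells, 11.47 and 10.97 in CD34+Flt3- cells and 11.38 and 11.69 in CD34+Flt3hi cells. Both CD34-Flt3- arrays were above all 4 others, and the arrays of the CD34+ groups overlapped. Probe set 1416880_at had the same order, with 11.19 and 11.68 in CD34-Flt3- cells, 10.37 and 10.03 in CD34+Flt3- cells and 10.06 and 10.42 in CD34+Flt3hi cells. Its mean was 10.20 ± 0.24 in CD34+Flt3- cells and 11.43 ± 0.34 in CD34-Flt3- cells (SD, n = 2 each), a difference of -1.23 (SE 0.24) or 2.35-fold lower, with an adjusted p of 0.0440 in limma. In CD34+Flt3hi cells it was 10.24 ± 0.25 (SD, n = 2), which is -1.20 (SE 0.24) or 2.29-fold lower than in CD34-Flt3- cells, with a limma adjusted p of 0.0213. Between CD34+Flt3hi and CD34+Flt3- cells it differed by 0.04, with a 95% confidence interval from -0.49 to 0.56.

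The other Mcl1 probe sets had the same direction against CD34-Flt3- cells. Probe set 1437527_x_at read 11.62 and 12.33 in CD34-Flt3- cells, 10.96 and 10.62 in CD34+Flt3- cells and 10.71 and 11.11 in CD34+Flt3hi cells. Its difference was -1.07 (SE 0.25), or 2.09-fold lower, in CD34+Flt3hi against CD34-Flt3- cells (limma adjusted p 0.0466), and -1.18 in CD34+Flt3- against CD34-Flt3- cells, which missed the threshold (adjusted p 0.0626). All 6 probe sets had lower values without overlap in the CD34+Flt3- group than in the CD34-Flt3- group, by -1.23 to -1.03, a separation seen downward in 25.7% of all probe sets. All 6 were also lower without overlap in the CD34+Flt3hi group than in the CD34-Flt3- group, by -1.20 to -0.61, against 25.8% of all probe sets. The brightest, 1448503_at, was at -1.03 and -0.71 in these comparisons, with limma adjusted p of 0.0619 and 0.122. The dimmest of the 6, 1416881_at, read 9.30 and 8.66 in CD34-Flt3- cells, 8.26 and 7.44 in CD34+Flt3- cells and 8.18 and 8.57 in CD34+Flt3hi cells, where the lowest CD34-Flt3- array lay just above the highest CD34+Flt3hi array. Probe sets of 1 gene read the same RNA and are not replicates, and the 3 with an x in their name may also bind other transcripts.

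The size of the Mcl1 difference and its calls depended on which arrays were used. On 5 of the 6 Mcl1 probe sets CD34-Flt3- replicate 2 was the higher array of its group, by 0.40 to 0.84 log2 units, and on 1416881_at it was the lower. Without it, the CD34+Flt3- against CD34-Flt3- difference of 1416880_at was -0.99 (limma adjusted p 0.0490), and without CD34-Flt3- replicate 1 it was -1.48 (adjusted p 0.00841). Leaving out either CD34+Flt3- array or either CD34+Flt3hi array moved the adjusted p of this comparison to between 0.0972 and 0.415, at differences of -1.40 to -1.06. For CD34+Flt3hi against CD34-Flt3- cells the call of 1416880_at was lost without CD34+Flt3hi replicate 1 (-1.02, adjusted p 0.274) or replicate 2 (-1.37, adjusted p 0.119). The call of 1437527_x_at was kept without CD34-Flt3- replicate 1 (-1.42, adjusted p 0.00362) and lost without any other array, with adjusted p from 0.0768 to 0.423.

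Each sample title ends in a code that no label explains, written here as A, B or C. Code A holds replicate 2 of every group, code B replicate 1 of both CD34+ groups, and code C replicate 1 of CD34-Flt3- cells. Within code A, Mcl1 1416880_at was -1.65 in CD34+Flt3- against CD34-Flt3- cells and -1.26 in CD34+Flt3hi against CD34-Flt3- cells, with 1 array a group and no test. Within code A, 1437527_x_at was -1.70 and -1.22 in the same comparisons. The CD34-Flt3- arrays also differed from each other in G2 and M phase genes, with means over 14 genes of 8.07 and 6.32 in CD34-Flt3- cells, 9.22 and 9.39 in CD34+Flt3- cells and 9.66 and 9.72 in CD34+Flt3hi cells. Against CD34-Flt3- cells 4 of these 14 genes passed higher in the CD34+Flt3- group and 13 in the CD34+Flt3hi group. The ratio of the 3′ to the 5′ control probe set of Gapdh, which rises as RNA is shortened, was 5.04 and 6.34 in CD34-Flt3- cells, 6.83 and 7.50 in CD34+Flt3- cells and 6.59 and 8.42 in CD34+Flt3hi cells. The same ratio of beta-actin was 3.58 and 5.55 in CD34-Flt3- cells, 3.25 and 4.44 in CD34+Flt3- cells and 3.69 and 3.79 in CD34+Flt3hi cells. By Gapdh both CD34-Flt3- arrays were below all 4 CD34+ arrays, whereas by actin CD34-Flt3- replicate 2 was the highest of all 6 arrays. The part of cell cycle, RNA length or the title codes in the Mcl1 result was not tested.

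**Figure D2:**
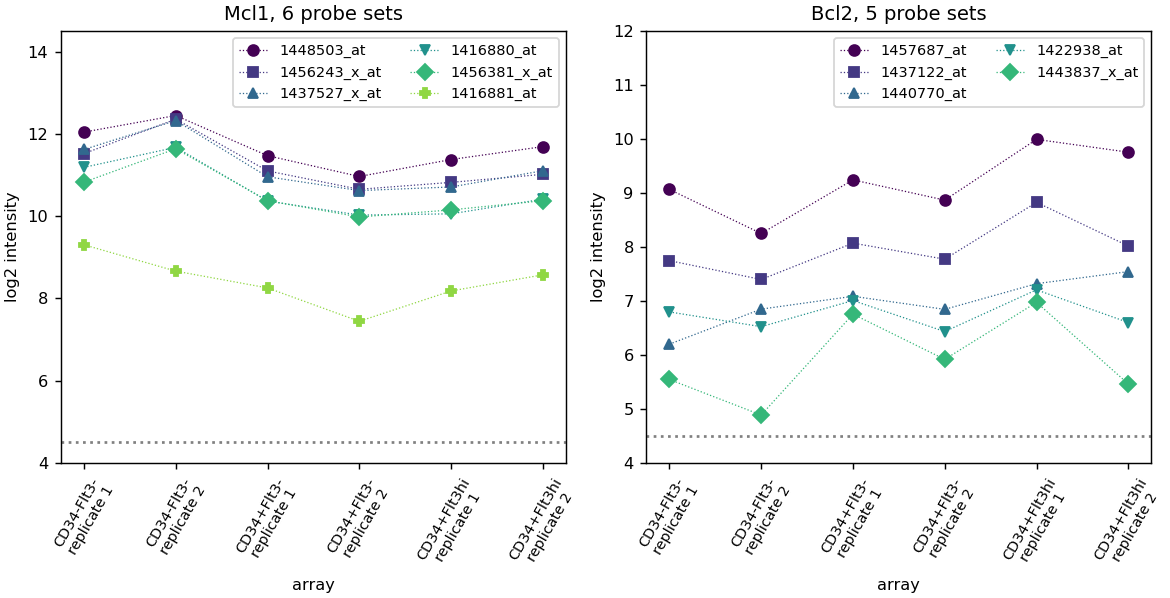
Log2 intensity of the 6 Mcl1 and the 5 Bcl2 probe sets on the vertical axis, with 1 array at each place of the horizontal axis. Dotted lines only join the points of a probe set, since arrays of a group have no order. All 6 Mcl1 probe sets were highest on the CD34-Flt3- arrays, and the brightest Bcl2 probe set was highest on the CD34+Flt3hi arrays.

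Bcl2, the founding prosurvival member, had its highest values in CD34+Flt3hi cells but did not pass the test. Its brightest probe set, 1457687_at, read 9.07 and 8.25 in CD34-Flt3- cells, 9.25 and 8.87 in CD34+Flt3- cells and 10.00 and 9.76 in CD34+Flt3hi cells. Both CD34+Flt3hi arrays were above all 4 others, and the arrays of the other groups overlapped. The mean was 9.88 ± 0.17 in CD34+Flt3hi cells and 8.66 ± 0.58 in CD34-Flt3- cells (SD, n = 2 each), a difference of 1.22 (SE 0.30) or 2.33-fold, with a limma adjusted p of 0.0550. Against CD34+Flt3- cells, at 9.06 ± 0.27 (SD, n = 2), the difference was 0.82 with an unadjusted limma p of 0.0217 and an adjusted p of 0.719. Within title codes this last difference was 0.89 in code A and 0.75 in code B. The CD34+Flt3hi against CD34-Flt3- difference was 1.63 (limma adjusted p 0.00416) without CD34-Flt3- replicate 1 and 0.81 (adjusted p 0.111) without CD34-Flt3- replicate 2.

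The other Bcl2 probe sets differed in how far they followed it. Probe set 1437122_at read 7.75 and 7.40 in CD34-Flt3- cells, 8.07 and 7.77 in CD34+Flt3- cells and 8.83 and 8.02 in CD34+Flt3hi cells. Probe set 1440770_at read 6.20 and 6.85 in CD34-Flt3- cells, 7.09 and 6.85 in CD34+Flt3- cells and 7.32 and 7.54 in CD34+Flt3hi cells. Both were above the CD34-Flt3- arrays in CD34+Flt3hi cells without overlap, by 0.85 and 0.91, with limma adjusted p of 0.220 and 0.164. Probe set 1422938_at read 6.80 and 6.52 in CD34-Flt3- cells, 7.01 and 6.43 in CD34+Flt3- cells and 7.21 and 6.60 in CD34+Flt3hi cells, and all groups overlapped. Probe set 1443837_x_at read 5.54 and 4.89 in CD34-Flt3- cells, 6.76 and 5.92 in CD34+Flt3- cells and 6.97 and 5.46 in CD34+Flt3hi cells. It was higher in CD34+Flt3- than in CD34-Flt3- cells by 1.12 without overlap (adjusted p 0.327), and its CD34+Flt3hi arrays spanned 1.51 log2 units.

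Bcl2l1, which encodes Bcl-xL, had its lowest values in CD34+Flt3hi cells by its brightest probe set. Probe set 1420888_at read 7.98 and 8.23 in CD34-Flt3- cells, 8.06 and 7.81 in CD34+Flt3- cells and 7.38 and 7.46 in CD34+Flt3hi cells. The CD34+Flt3hi arrays lay below all 4 others, and the other groups overlapped. The difference was -0.68 in CD34+Flt3hi against CD34-Flt3- cells (limma adjusted p 0.226) and -0.51 in CD34+Flt3hi against CD34+Flt3- cells (adjusted p 0.955), so neither passed. The remaining 3 probe sets lay near background, between 3.92 and 5.18 on all arrays, and 1426050_at was below background on every array. Among them 1420887_a_at was at 0.36 and 1426050_at at -0.37 in CD34+Flt3hi against CD34-Flt3- cells, so the Bcl2l1 probe sets disagreed in sign.

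The effector Bak1, which forms pores in the outer mitochondrial membrane, showed no difference beyond the spread of its arrays. Its probe set 1418991_at read 6.14 and 6.50 in CD34-Flt3- cells, 6.34 and 7.14 in CD34+Flt3- cells and 6.13 and 6.42 in CD34+Flt3hi cells. All groups overlapped, and the CD34+Flt3hi against CD34-Flt3- difference was -0.05 with a 95% confidence interval from -0.80 to 0.70. Its other probe set, 1425716_s_at, lay near background at 4.19 to 4.68.

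Bcl2l11 encodes Bim, the BH3-only protein that acts in death after growth factor withdrawal and in the removal of lymphocytes. Its brightest probe set, 1456005_a_at, read 7.29 and 8.22 in CD34-Flt3- cells, 7.97 and 8.11 in CD34+Flt3- cells and 8.82 and 9.19 in CD34+Flt3hi cells. As for Bcl2, both CD34+Flt3hi arrays were above all 4 others, and the CD34+Flt3- arrays lay between the CD34-Flt3- arrays. The mean was 9.01 ± 0.26 in CD34+Flt3hi cells and 7.75 ± 0.66 in CD34-Flt3- cells (SD, n = 2 each), a difference of 1.25 (SE 0.33) or 2.38-fold, which did not pass (limma adjusted p 0.0721). Against CD34+Flt3- cells, at 8.04 ± 0.10 (SD, n = 2), it was 0.97 with an unadjusted limma p of 0.0153 and an adjusted p of 0.611, and it was 1.08 within code A and 0.85 within code B. Without CD34-Flt3- replicate 2 the difference from CD34-Flt3- cells was 1.72 (limma adjusted p 0.00552), and without CD34-Flt3- replicate 1 it was 0.78 (adjusted p 0.113).

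The CD34-Flt3- arrays thus stood in opposite order for Bcl2 and Bcl2l11, replicate 1 being the higher for Bcl2 1457687_at and replicate 2 for Bcl2l11 1456005_a_at. Bcl2l11 1435448_at read 6.75 and 6.74 in CD34-Flt3- cells, 6.88 and 6.36 in CD34+Flt3- cells and 7.12 and 7.29 in CD34+Flt3hi cells. The CD34+Flt3hi arrays were again highest, by 0.46 over CD34-Flt3- cells (limma adjusted p 0.499). Probe set 1456006_at had a narrow range from 5.34 to 5.72 on the 6 arrays. The other 2 probe sets, 1435449_at and 1426334_a_at, lay near background at 3.83 to 4.86.

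Bid, which caspase 8 cleaves to pass a death receptor signal to mitochondria, read 7.96 and 6.83 in CD34-Flt3- cells, 7.62 and 7.27 in CD34+Flt3- cells and 8.10 and 8.09 in CD34+Flt3hi cells by its brightest probe set, 1417045_at. The CD34+Flt3hi arrays were highest, by 0.70 over CD34-Flt3- cells (limma adjusted p 0.396), and the CD34-Flt3- arrays were 1.14 apart. Probe set 1448560_at read 5.78 and 5.14 in CD34-Flt3- cells, 4.38 and 4.81 in CD34+Flt3- cells and 5.37 and 5.40 in CD34+Flt3hi cells. It was lowest in CD34+Flt3- cells without overlap, at -0.86 against CD34-Flt3- cells (limma adjusted p 0.228). CD34+Flt3hi cells were at 0.78 against CD34+Flt3- cells (limma adjusted p 0.771). The CD34+Flt3- array at 4.38 was below background, and 1417045_at differed by only 0.05 between CD34+Flt3- and CD34-Flt3- cells. Probe set 1447873_x_at ranged from 4.31 to 4.92.

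Bad, which growth factor signals inactivate by phosphorylation, had no call. Its probe set 1416582_a_at read 6.97 and 6.97 in CD34-Flt3- cells, 7.00 and 6.78 in CD34+Flt3- cells and 6.53 and 6.89 in CD34+Flt3hi cells, a difference of -0.26 in CD34+Flt3hi against CD34-Flt3- cells with a 95% confidence interval from -0.89 to 0.36. On 1416582_a_at both CD34+Flt3hi arrays lay below both CD34-Flt3- arrays, a separation seen downward in 25.8% of all probe sets. Probe set 1416583_at ranged from 5.36 to 6.18 with all groups overlapping.

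The p53-induced members showed no call. Bbc3, which encodes Puma, read 6.15 and 7.21 in CD34-Flt3- cells, 5.60 and 6.43 in CD34+Flt3- cells and 5.79 and 6.51 in CD34+Flt3hi cells on its single probe set, 1423315_at. In every group replicate 2, the code A array, was the higher by 0.72 to 1.06, and all groups overlapped. Its difference was -0.53 in CD34+Flt3hi against CD34-Flt3- cells with a 95% confidence interval from -1.50 to 0.44, and -0.70 within code A. Pmaip1, which encodes Noxa, a binder of Mcl1, ranged from 3.83 to 4.27 on 1418203_at and was below background on all 6 arrays, so no fold is given.

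**Figure D3:**
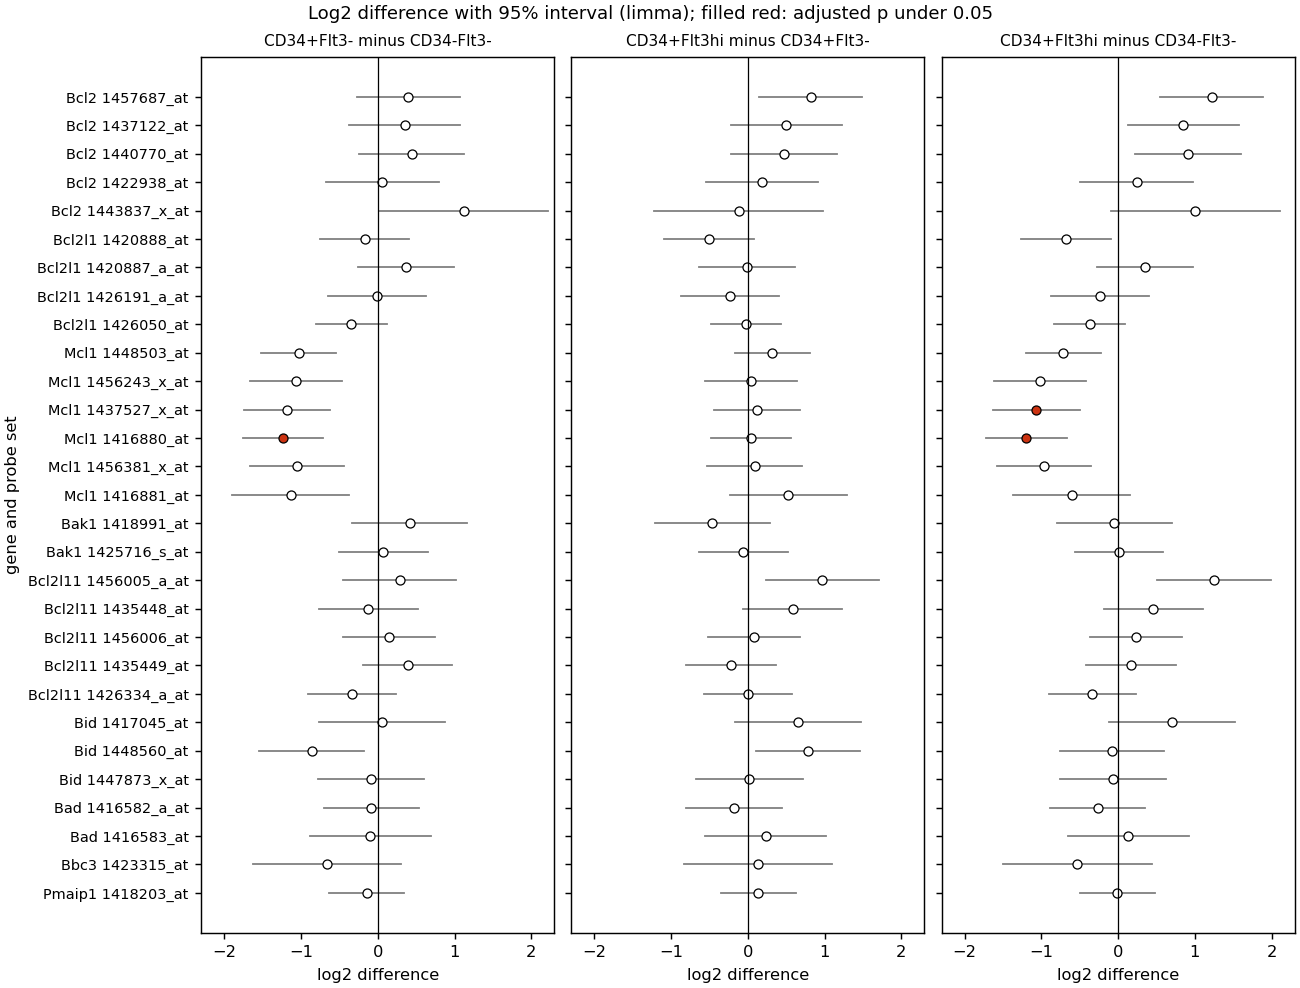
Log2 differences with 95% confidence intervals from limma for the 29 probe sets, 1 in each row, in CD34+Flt3- against CD34-Flt3-, CD34+Flt3hi against CD34+Flt3- and CD34+Flt3hi against CD34-Flt3- cells. The horizontal axis is the log2 difference, and filled points passed the threshold. Filled points are Mcl1 probe sets only, while the intervals of the brightest Bcl2 (1.22) and Bcl2l11 (1.25) probe sets lay above 0 in the last comparison without passing the adjusted threshold.

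Whether the members changed differently at the steps was tested directly, as the CD34+Flt3hi minus CD34+Flt3- difference minus the CD34+Flt3- minus CD34-Flt3- difference. None of the 29 probe sets passed in limma (7 had an unadjusted p under 0.05), against 0.0315% of all probe sets at the adjusted and 7.94% at the unadjusted threshold. The 6 Mcl1 probe sets were among those 7, with step differences of 1.11 to 1.66 and limma adjusted p from 0.467 to 0.614. Bid 1448560_at was the other, at 1.65 (limma adjusted p 0.521), with 1 CD34+Flt3- array below background. For Bcl2 1457687_at the step difference was 0.42 (adjusted p 0.875) and for Bcl2l11 1456005_a_at 0.68 (adjusted p 0.809).

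Genes whose pattern over the 6 arrays was most like that of Bcl2l11 and of Bcl2, the members with the widest range of group means by their brightest probe sets, were sought among 14105 genes. Likeness was the root mean square difference of log2 values after each gene was centred on its own mean. Rhbdl3 (0.115), AA467197 (0.130) and B4galnt1 (0.147) were nearest to Bcl2l11. AA467197 was below background on every CD34-Flt3- and CD34+Flt3- array, at 3.42 to 4.10. Rhbdl3 lay near background on those arrays, at 3.87 to 4.68. Ccdc34 (0.0830), Adgrl4 (0.116) and Stambpl1 (0.123) were nearest to Bcl2. With 6 arrays such likeness is a description only.

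Other genes of the death pathway were read from their brightest probe sets with the same adjusted p. Over all 18193 brightest probe sets 0.572% were called higher and 0.797% lower in CD34+Flt3- against CD34-Flt3- cells, 0.275% and 0.170% in CD34+Flt3hi against CD34+Flt3- cells, and 2.26% and 3.01% in CD34+Flt3hi against CD34-Flt3- cells. Among other prosurvival genes 2 of 5 were measured and 0 were called in limma in any comparison, with Bcl2l2 (Bcl-w) at -0.44 in CD34+Flt3hi against CD34-Flt3- cells (adjusted p 0.555). Among other effectors and BH3 proteins 6 of 7 were measured, and 1 was called. That gene was Bmf, a BH3-only protein, at 6.82 and 6.91 in CD34+Flt3hi cells, against 5.61 and 5.62 in CD34-Flt3- cells, a rise of 1.25 (limma adjusted p 0.0422) on a probe set with an x in its name. Its other probe sets were at -0.24 to -0.19, so the rise was not shared by them.

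Downstream of the mitochondria 0 of 10 measured apoptosome and caspase genes, of 12 listed, and 0 of 6 caspase inhibitors and their antagonists were called by limma in any comparison. Cycs, which encodes cytochrome c, was at 0.83 in CD34+Flt3hi against CD34-Flt3- cells (limma adjusted p 0.0861). Its other probe sets ran from -0.23 to 1.05. Casp8, the initiator caspase of death receptors, was at 0.95 in the same comparison (limma adjusted p 0.160). Birc2, an inhibitor of apoptosis that acts as a ubiquitin ligase, was at -1.04 (limma adjusted p 0.0519) and Htra2, a mitochondrial protease, at -0.65 (adjusted p 0.169) in that comparison. On the death receptor side 0 of 7 measured genes, of 8, were called, with Casp8 as above and Tnfrsf1a, a receptor of tumour necrosis factor, at -0.54 in CD34+Flt3- against CD34-Flt3- cells (limma adjusted p 0.321).

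Upstream, 15 of 16 listed genes of p53 and its targets were measured. In CD34+Flt3- against CD34-Flt3- cells 1 fell and 0 rose, namely Sesn1, a stress-induced inhibitor of mTORC1 signalling, at 9.54 and 9.37 in CD34+Flt3- cells, against 10.66 and 10.39 in CD34-Flt3- cells, a difference of -1.07 (limma adjusted p 0.0442). In CD34+Flt3hi cells Sesn1 was at 10.43 and 10.33, a difference of -0.14 from CD34-Flt3- cells (limma adjusted p 0.802). Against CD34-Flt3- cells its other probe sets were at -0.89 to -0.13 in CD34+Flt3- cells and 0.16 to 0.58 in CD34+Flt3hi cells. In CD34+Flt3hi against CD34-Flt3- cells 1 fell, namely Perp, a membrane protein of desmosomes, which was below background on both CD34+Flt3hi arrays and at 5.07 and 5.60 in CD34-Flt3- cells, at least 1.79-fold lower with values below background set to it (limma adjusted p 0.0336). In CD34+Flt3hi against CD34+Flt3- cells 0 of the 15 were called by limma. All 12 listed regulators of Mcl1 and Bcl2l11, among them Foxo, Stat and ubiquitin ligase genes, were measured and 0 were called in limma. Foxo1, a forkhead factor that activates Bcl2l11 transcription, was at -1.15 in CD34+Flt3hi against CD34-Flt3- cells (limma adjusted p 0.0535). Its other probe sets ran from -1.02 to 0.10. Dynll1, a dynein light chain that binds Bim, was at 0.60 in that comparison (limma adjusted p 0.0914). Other Dynll1 probe sets ran from 0.03 to 0.83.

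The sort was checked against its antigens and against markers of other cells. Cd34 rose by 1.48 in CD34+Flt3- against CD34-Flt3- cells (limma adjusted p 0.0265) and Flt3 by 3.48 in CD34+Flt3hi against CD34-Flt3- cells (adjusted p 0.00314). Flt3 was at 2.56 in CD34+Flt3hi against CD34+Flt3- cells, which missed the threshold (limma adjusted p 0.0580). Kit, which helps define LSK cells, was at -0.87 in CD34+Flt3- and -0.98 in CD34+Flt3hi against CD34-Flt3- cells. Neither Kit difference passed (limma adjusted p 0.428 and 0.346). Markers of B lineage cells (5 genes), T and NK cells (5), mature erythroid cells (3) and neutrophils and monocytes (8) were averaged over each list. These averages lay between 3.81 and 5.33 on all arrays, and 0 of the genes were called by limma in any comparison. A group mean above background was found for 4, 4, 1 and 4 of the genes in the same order. The averages hide higher genes, such as Cd79b at 6.99 to 7.61, Cd3e at 5.90 to 6.71 and Ccr2 at 5.88 to 7.23. For 6 stromal and endothelial genes, mean levels were 4.70 to 4.99 in CD34+Flt3hi cells, against 5.50 and 5.51 in CD34-Flt3- cells. In this comparison 2 (Kdr and Col1a2) fell by their brightest probe sets, and their part in the Mcl1 result was not tested. Kdr, on its single probe set, read 5.52 and 5.43 in CD34+Flt3hi cells, against 7.59 and 6.94 in CD34-Flt3- cells. That is a difference of -1.79 (limma adjusted p 0.0118). Col1a2 was at -1.65, but its other probe sets were at -0.31 to -0.17. In bulk RNA, fewer cells expressing a gene and less RNA per cell cannot be told apart.

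**Figure D4:**
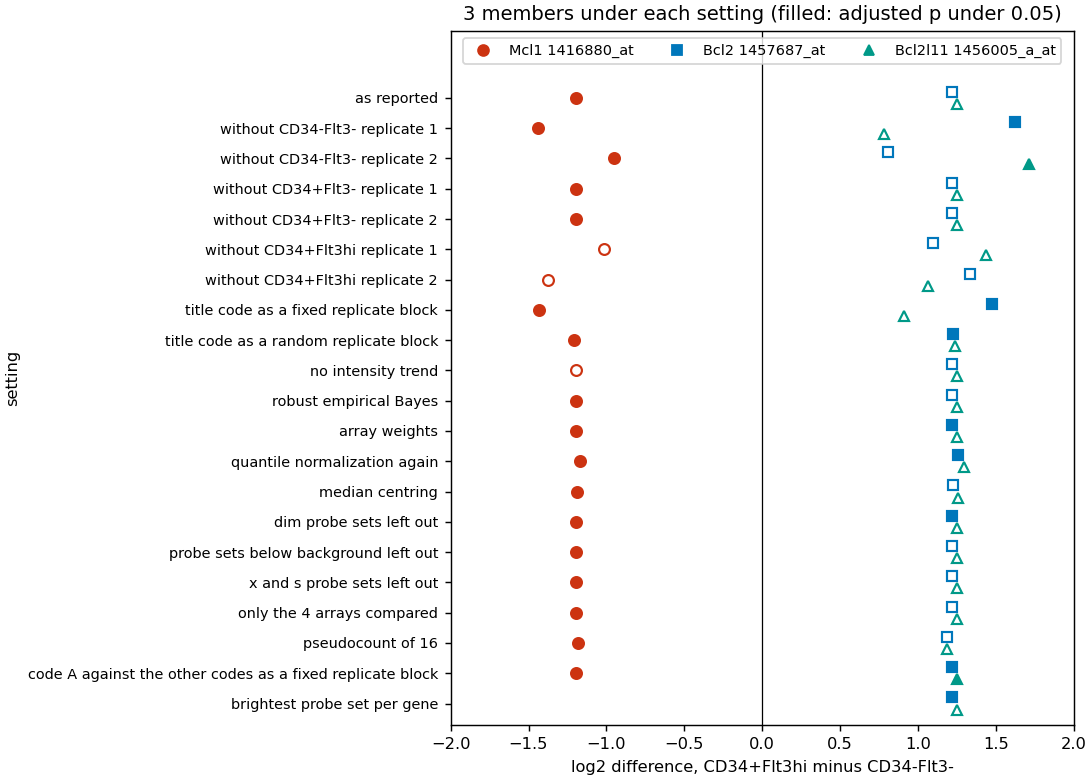
Log2 differences between CD34+Flt3hi and CD34-Flt3- cells on the horizontal axis for Mcl1 1416880_at, Bcl2 1457687_at and Bcl2l11 1456005_a_at. The top row is as reported, with alternative settings down the page. The mean of probe sets per gene is not plotted, and under it the Bcl2l11 difference was smallest, at 0.35. Filled points passed the threshold and open ones did not. Mcl1 lay below 0 in every setting plotted for it (with only the brightest probe set per gene this one is not used), both others lay above 0, and which of them passed depended on the setting.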

How the data were processed

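Affymetrix arrays (6 in all, 2 a group) measured RNA of sorted LSK cells. This RNA, per the labels' protocols, was amplified with a second round of in vitro transcription and labelled with biotin. The submitters' processing notes name RMA. The deposited values are taken as linear signal intensities normalised by the authors, an inference from their range, and their log2 was taken here. Arrays have no read depth; precision is set by how many arrays there are.

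Of 45101 probe sets, 64 controls, 932 with several gene symbols and 9160 with none were left out. Symbols were updated through gene identifiers, of which 99.4% matched. The 34945 others entered limma 3.58.1 (R 4.3.3, with the data.table package at 1.17.8) as 3 group means with trended empirical Bayes variances, on 3 residual and 6.88 prior degrees of freedom. The groups shared a variance for each probe set, although their arrays were not equally close. Between arrays of a group, the share of probe sets over 2-fold apart was 7.90% (CD34-Flt3-), 2.66% (CD34+Flt3-) and 0.778% (CD34+Flt3hi). The p-values against CD34-Flt3- cells, which include all Mcl1 calls, may therefore be too small. Those between the CD34+ groups may be too large. Two-sided p-values were adjusted after Benjamini and Hochberg. The members and gene lists were chosen with earlier results of these data known. All member probe sets are given, a gene first by its brightest. Of each list, up to 4 genes past the threshold, or up to 2 as values, are named by smallest adjusted p.

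Alternatives were title codes as blocks, array weights, a robust prior, no trend, renormalization, filters, a pseudocount of 16, a minimum 2-fold difference, an adjusted p under 0.10, gene-level values, fewer arrays and leaving out each array. Simulated data had 34945 probe sets, of which 200 were changed. There a log2 change of 1 was found in 4% and of 2 in 47% of cases for CD34+Flt3- against CD34-Flt3- cells. The shares were 2% and 27% for CD34+Flt3hi against CD34+Flt3- cells and 3% and 33% for CD34+Flt3hi against CD34-Flt3- cells. In the data themselves 393, 120 and 1444 probe sets were called in the same order. The adjusted threshold depends on how many probe sets change, so these shares are not the power of the comparisons made here. Figures used matplotlib 3.10.9, and tables pandas 2.3.3 in Python 3.11.15.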

Additional observations from a re-analysis of the deposited data

How the results depend on the processing

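No Mcl1, Bcl2 or Bcl2l11 difference with an adjusted p under 0.10 changed sign under these alternatives, but counts of member calls did change. In CD34+Flt3- against CD34-Flt3- cells it was 1 as reported, 0 with no intensity trend, array weights, quantile normalization again, median centring, the mean of probe sets per gene or only the 4 arrays compared, and 3 at an adjusted p under 0.10. In CD34+Flt3hi against CD34-Flt3- cells it was 2 as reported, 0 with no trend or the mean of probe sets, 1 with a robust prior, median centring, the brightest probe set per gene, x and s probe sets left out, only 4 arrays or a pseudocount of 16, 4 with array weights and 6 at an adjusted p under 0.10. For any difference it was 1 as reported, 0 with no trend, the brightest or the mean of probe sets, 2 with quantile normalization and 4 at an adjusted p under 0.10. With only the brightest probe set of each gene, Mcl1 1448503_at passed in CD34+Flt3- against CD34-Flt3- cells (adjusted p 0.0483) and Bcl2 1457687_at in CD34+Flt3hi against CD34-Flt3- cells (adjusted p 0.0413). Leaving out 1 array gave 0 to 5 member calls in CD34+Flt3- against CD34-Flt3- cells, 0 to 7 in CD34+Flt3hi against CD34-Flt3- cells, 0 to 6 for any difference, and 0 in the other comparisons, with the highest counts without CD34-Flt3- replicate 1.

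The replicate numbers follow accession order and pair nothing, and the title codes have no stated meaning. Deviations of the code A arrays from their group means correlated at 0.28 between CD34+Flt3- and CD34-Flt3-, 0.08 between CD34+Flt3hi and CD34+Flt3-, and 0.07 between CD34+Flt3hi and CD34-Flt3- cells. With title codes blocked, which fits the code C array exactly so that CD34-Flt3- cells rest on replicate 2, the member calls were 5 in CD34+Flt3- against CD34-Flt3-, 2 in CD34+Flt3hi against CD34+Flt3- (Bcl2 1457687_at and Bcl2l11 1456005_a_at), 7 in CD34+Flt3hi against CD34-Flt3- cells, 5 for the difference of the steps and 8 for any difference. As a random block they were 3, 0, 3, 0 and 2 in the same order. A replicate block for code A alone, chosen after seeing the data, gave 5, 0, 6, 0 and 7.

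Over all probe sets the calls in CD34+Flt3- against CD34-Flt3- cells were 393 as reported, 2347 with the fixed block, 1138 with the code A block, 856 at an adjusted p under 0.10, 244 with no trend, 199 with the mean of probe sets, 47 with only 4 arrays and 0 to 1319 without 1 array. In CD34+Flt3hi against CD34+Flt3- cells they were 120 as reported, 778 with the fixed block, 269 with the code A block, 337 with array weights, 304 with only 4 arrays, 69 with the mean of probe sets and 22 to 301 without 1 array. In CD34+Flt3hi against CD34-Flt3- cells they were 1444 as reported, 3718 with the fixed block, 2261 with the code A block, 2176 at an adjusted p under 0.10, 932 with the mean of probe sets and 234 to 2983 without 1 array. For the difference of the steps they were 11 as reported, 619 with the fixed block, 56 with the code A block, 17 with array weights, 7 with x and s probe sets left out, 5 with the brightest or the mean of probe sets and 0 to 125 without 1 array. For any difference they were 975 as reported, 3461 with the fixed block, 2004 with the code A block, 1653 at an adjusted p under 0.10, 613 with the mean of probe sets and 189 to 2089 without 1 array. Where 1 array of a group remained, it was taken to vary like the others. Genes outside the 9 were not recomputed singly.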
